A study of Homo sapiens and Mus musculus with 74 samples.

Results

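The fatty acid oxidation and carnitine genes considered here were Bbox1, Slc22a5, Cpt1a, Cpt2, Acadm, Acadl, Hadha, Hadhb and Ehhadh, 9 of the 22484 mouse genes with a coding transcript in the count table. Each gene was represented by 1 transcript, the one with the longest annotated protein. The set was chosen by its measured values in kidney against brain and in Rpl41 KO against WT, in mRNA and in footprints, so those comparisons are given as descriptions and the disome libraries serve as the measurement that the choice did not use. WT mice and mice lacking Rpl41, which encodes the smallest protein of the ribosome, were compared in whole kidney and whole brain. The mice were adult males of the C57BL/6J strain, and the KO mice carried a constitutive CRISPR-Cas9 deletion of the Rpl41 coding sequence in every tissue, with no other allele, agent or treatment named for either group. Poly(A)-selected mRNA (RNA-seq) and single-ribosome footprints (Ribo-seq) were sequenced from both organs, and fragments covered by a pair of stacked ribosomes (disome-seq) from kidney, with 3 libraries of each genotype in each set, 30 in all. Nothing in the labels says whether libraries with the same number came from the same mouse.

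Fatty acids enter mitochondria as carnitine esters. Bbox1 makes carnitine in the last step of its synthesis, and Slc22a5 (OCTN2) carries carnitine into cells across the plasma membrane. Cpt1a on the outer mitochondrial membrane forms the acylcarnitine and Cpt2 on the inner membrane turns it back into acyl-CoA. The acyl-CoA dehydrogenases Acadl, for long chains, and Acadm, for medium chains, then start each cycle of beta-oxidation. Hadha and Hadhb are the subunits of the mitochondrial trifunctional protein, which carries out the remaining steps for long chains, and Ehhadh is a bifunctional enzyme of the peroxisome. The kidney proximal tubule is known for its reliance on fatty acid oxidation, and neurons for their low use of it.

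The 9 genes lay on 8 chromosomes of GRCm38 (GENCODE M21). Hadha (chromosome 5, 30118304 to 30155162, minus strand, 20 exons) and Hadhb (chromosome 5, 30155248 to 30184593, plus strand, 16 exons) stood head to head, and the starts of their representative transcripts were 110 bases apart. The stretch that belonged to both promoter windows (250 bases before to 50 after each start) is shown because the windows of both subunits overlapped there. Whether it acts as a promoter of either gene was not tested. The Bbox1 promoter is shown because Bbox1 was the member with the opposite tissue pattern. That of Cpt1a is shown because it held, like the shared stretch, the letters AGGTCA, a half-site of nuclear receptors. Capitals mark AGGTCA or its reverse complement, and each sequence is read 5′ to 3′ on the strand given, from the GRCm38.p6 genome.
Hadha and Hadhb, shared stretch, chr5:30155113-30155321, plus strand: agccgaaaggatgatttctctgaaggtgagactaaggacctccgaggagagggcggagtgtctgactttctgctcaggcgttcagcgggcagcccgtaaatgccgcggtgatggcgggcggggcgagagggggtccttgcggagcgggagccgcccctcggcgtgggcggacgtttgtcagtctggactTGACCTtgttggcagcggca
Bbox1 promoter, chr2:110305692-110305991, minus strand: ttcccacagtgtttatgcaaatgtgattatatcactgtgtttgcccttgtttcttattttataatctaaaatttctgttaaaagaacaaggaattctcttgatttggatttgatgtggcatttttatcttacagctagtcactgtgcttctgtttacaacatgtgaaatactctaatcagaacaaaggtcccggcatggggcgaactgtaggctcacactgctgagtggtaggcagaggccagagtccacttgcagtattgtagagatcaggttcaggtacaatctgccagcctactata
Cpt1a promoter, chr19:3323035-3323334, plus strand: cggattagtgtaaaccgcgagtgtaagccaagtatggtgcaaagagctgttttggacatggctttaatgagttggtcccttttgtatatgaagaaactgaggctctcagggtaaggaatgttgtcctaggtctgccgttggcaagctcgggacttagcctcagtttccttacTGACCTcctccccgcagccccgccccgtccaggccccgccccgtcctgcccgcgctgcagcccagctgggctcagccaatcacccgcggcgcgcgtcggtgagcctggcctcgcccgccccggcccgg

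Promoters here are those of the representative transcripts. The windows of Bbox1 and Cpt1a lay inside the annotated genes, whose outer starts, 110314560 (minus strand) and 3322334 (plus strand), they did not cover. The Bbox1 promoter was 40% G and C, below the median of 55.7% over promoters of the same length, while the other 8 lay between 55.7% and 74.3%. AGGTCA on either strand was present in the promoters of Cpt1a, Hadha and Hadhb, 3 of 9, and in 14.3% of 22440 promoters of the same length. Its first base lay 78 bases before the start in Cpt1a, 145 before it in Hadha and 30 after it in Hadhb, and the Hadha and Hadhb matches were the same letters in the shared stretch. The longer form TNAAGGTCA was in none of the 9 and in 1.06% of all promoters. AGGTCA repeated after 1 base of any kind was in none of the 9 and in 0.049% of all promoters. With up to 1 mismatch allowed, that repeat was in none of the 9 and in 0.468% of all promoters.

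The labels held for the deleted gene. Rpl41 had 3695 to 12199 mRNA counts in WT libraries of either organ and 3 to 12 in KO libraries. Total counts per library were 44998381 to 123745890 for mRNA, 9498663 to 42452425 for footprints and 1187636 to 3018963 for disomes. The summed level of 10 proximal tubule markers was 13106 CPM (counts per 1000000 counts of the library) or more in kidney mRNA and at most 23.4 CPM in brain mRNA, while 4 neuron markers had 1315 CPM or more in brain and at most 1.74 CPM in kidney. Mitochondrial rRNA took 1.77% and 1.67% of counts in KO kidney mRNA libraries 2 and 3 against 0.436% to 0.962% in the other kidney mRNA libraries. Pancreatic acinar markers summed to 122 CPM in WT kidney footprint library 1 and to at most 20.4 CPM in the other kidney footprint libraries. In WT brain footprint library 1 they summed to 41.0 CPM, and to at most 2.53 CPM in the other brain footprint libraries. Of the 28-base stretches in each transcript, 66.2% of those of Hadhb recurred in Gm13910 or Gm9108, 41.2% of those of Slc22a5 in Slc22a21, Slc22a4 or Gm12220, and 13.9% of those of Acadm in Gm5131, so the counts of these 3 members, made with multimapping reads allowed, are uncertain.

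In WT kidney, every member but Bbox1 was among the more abundant mRNAs. Levels between genes are compared as CPM per kb, of exon for mRNA and of coding sequence for footprints. Acadm had the highest mRNA level, at 128 ± 25.1 CPM per kb (SD, n = 3), followed by Ehhadh at 81.8 ± 1.79, Acadl at 65.6 ± 4.36 and Cpt1a at 30.9 ± 5.16. Cpt2 (22.5 ± 2.64), Slc22a5 (18.3 ± 2.36), Hadha (15.5 ± 1.16) and Hadhb (13.0 ± 2.58) came next, and each overlapped its neighbour in this order. These 8 lay between the 85.9th and the 98.8th percentile of 13919 genes with a mean of at least 10 counts. Bbox1 stood far below them at 0.0371 ± 0.0303 CPM per kb, from 3, 5 and 13 reads.

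**Figure D1:**
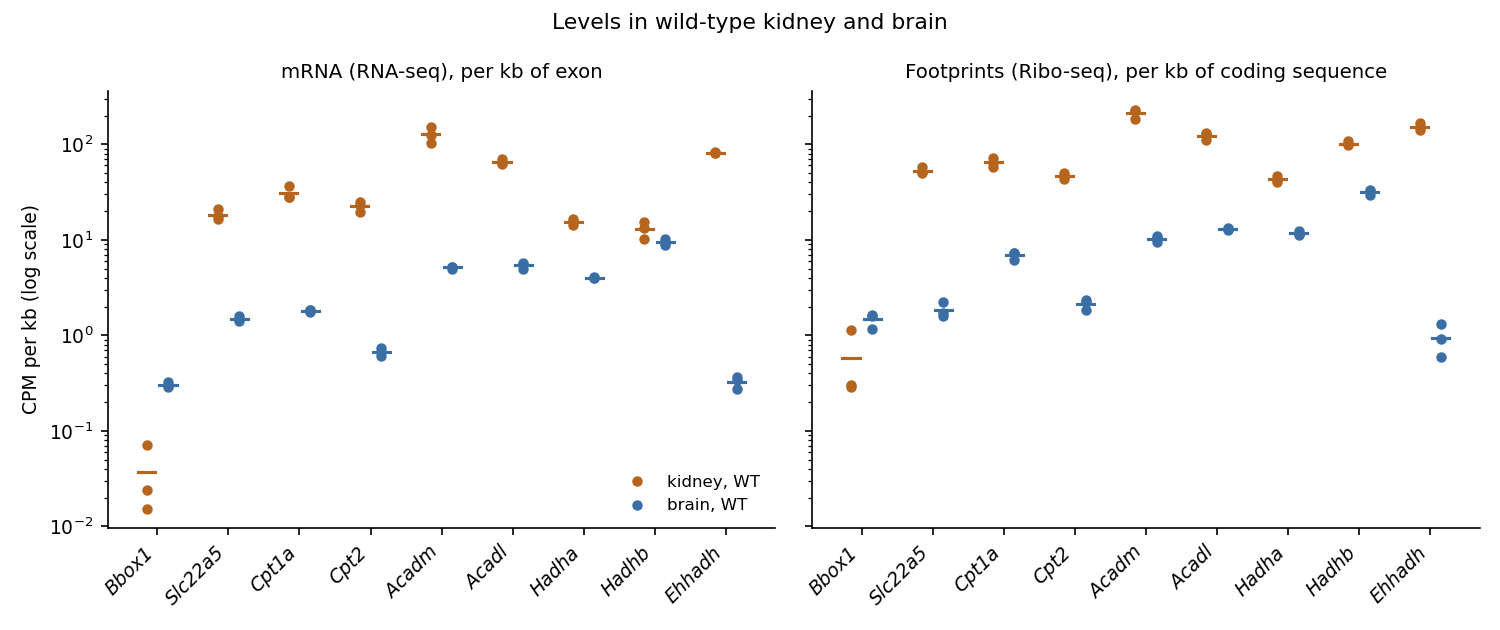
Level of each member in WT kidney and brain in CPM per kb on a log scale, for mRNA (left) and footprints (right). Points are libraries (n = 3) and lines their means. In footprints 8 members sit higher in kidney, by 3.41 to 184 fold in the fitted values, and Bbox1 sits lower there.

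In WT kidney footprints the order was the same for the first 3, Acadm at 211 ± 23.5, Ehhadh at 153 ± 13.9 and Acadl at 123 ± 10.6 CPM per kb of coding sequence. Hadhb came next to these 3 at 102 ± 5.14, well above its partner Hadha at 43.1 ± 2.93. Cpt1a (64.9 ± 7.28), Slc22a5 (52.8 ± 4.17) and Cpt2 (46.7 ± 2.99) lay between them, and only Cpt2 and Hadha overlapped among these neighbours. Bbox1 was again last, at 0.577 ± 0.489.

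In WT brain the order changed, with Hadhb first at 9.44 ± 0.772 CPM per kb of exon in mRNA and 31.7 ± 2.28 CPM per kb of coding sequence in footprints. Acadl (5.40 ± 0.425) and Acadm (5.13 ± 0.136) followed in mRNA and overlapped, and then came Hadha (4.00 ± 0.0575), Cpt1a (1.81 ± 0.0462), Slc22a5 (1.50 ± 0.101) and Cpt2 (0.669 ± 0.0629). Ehhadh (0.326 ± 0.0482) and Bbox1 (0.305 ± 0.0209) were lowest and overlapped. In brain footprints Ehhadh was last, at 0.943 ± 0.364, and overlapped Bbox1 at 1.47 ± 0.265.

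Set side by side, 8 of 9 members were higher in WT kidney than in WT brain in mRNA and the same 8 in footprints, against 38.3% and 37.5% of all genes called higher in kidney. These contrasts chose the set, so nothing is read from the counts. In these whole organs, fewer cells of a type and less RNA per cell cannot be told apart. Ehhadh had the largest difference, a log2 fold change of 8.22 (SE 0.24) in mRNA and 7.53 (SE 0.24) in footprints. Its mRNA stood at 240 to 250 CPM in the WT kidney libraries and at 0.812 to 1.09 CPM in the WT brain libraries. Cpt2 (5.32, SE 0.18), Acadm (4.87, SE 0.20), Cpt1a (4.33, SE 0.18), Slc22a5 (3.86, SE 0.16) and Acadl (3.84, SE 0.18) differed by 14.3 to 40.1 fold in mRNA. Hadha, present in both organs, differed by 2.20 (SE 0.16). Hadhb mRNA differed least, by 0.72 (SE 0.21), and its kidney and brain libraries overlapped.

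Bbox1 was lower in kidney, by a log2 fold change of -2.82 (SE 0.50) in mRNA and -1.37 (SE 0.44) in footprints. Its WT brain libraries had 109, 109 and 121 mRNA reads, or 1.15 to 1.32 CPM, against 0.0619, 0.0976 and 0.289 CPM in WT kidney. In brain its level per kb overlapped that of Ehhadh in both assays, and in kidney no other member came near it.

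The subunits of the trifunctional protein, which assemble in equal number, were not matched in footprints per kb. The ratio of Hadhb to Hadha was 2.32 to 2.40 in WT kidney footprints and 2.56 to 2.96 in WT brain footprints. In disomes it was 2.39 to 3.04. In mRNA per kb of exon the ratio lay between 0.655 and 0.943 in WT kidney and between 2.20 and 2.53 in WT brain, so the organs differed in mRNA far more than in footprints. Hadhb shares most of its sequence with Gm13910 and Gm9108, and the part of that in these ratios was not tested.

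**Figure D2:**
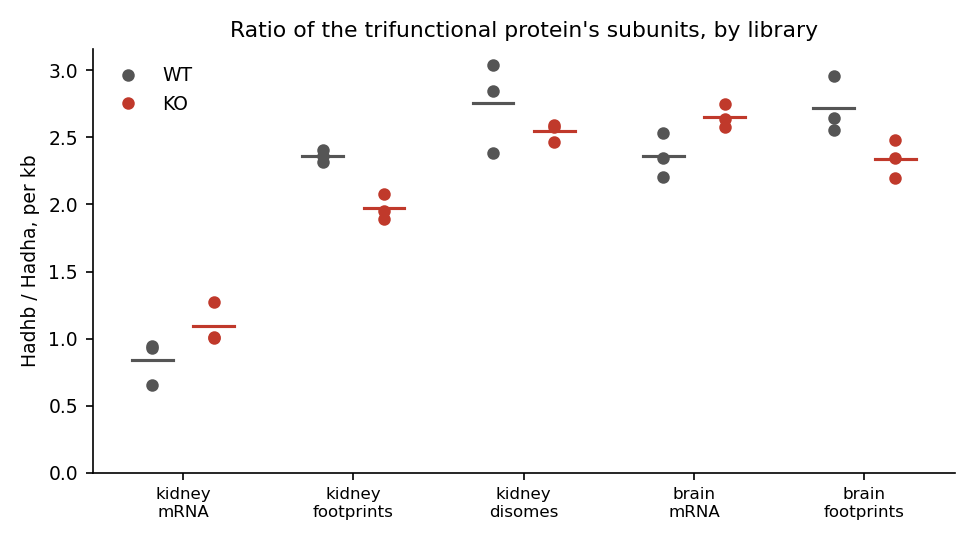
Ratio of Hadhb to Hadha in each library, from CPM per kb of exon (mRNA) or of coding sequence (footprints and disomes); points are libraries and lines the means of 3. In footprints every KO ratio lies below every WT ratio in both organs, and in mRNA every KO ratio lies above every WT ratio.

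In KO libraries this ratio was lower in footprints, at 1.89 to 2.08 in kidney and 2.19 to 2.48 in brain, and WT and KO did not overlap in either organ. In mRNA it was higher, at 1.00 to 1.27 in kidney and 2.58 to 2.75 in brain, also without overlap. In disomes the KO values of 2.46 to 2.60 fell within the WT range. With 3 libraries against 3, an exact permutation test cannot go below 0.10, and the ratio was picked after its values were seen.

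Footprint CPM relative to mRNA CPM also differed between members. This ratio has no term for length, and exon bases ran from 1916 in Acadl to 4317 in Cpt1a. It therefore does not order members by ribosomes per message. In WT kidney the log2 ratio of footprint to mRNA CPM was highest for Hadhb at 2.45, in the 96.8th percentile of 12594 genes, and lowest for Acadm at 0.03, against a median of -0.17 over all genes. Cpt2 (0.79), Hadha (0.67) and Slc22a5 (0.65) were in the ninth decile. In WT brain Cpt2 was highest at 1.41 and Slc22a5 was the only member below the median of -0.10, at -0.58. Cpt1a stood at 0.18 in kidney and 1.03 in brain. Bbox1 had too few kidney reads in WT for this ratio, and in brain it was 0.47. Hadhb and Slc22a5 share 66.2% and 41.2% of their 28-base stretches with other genes, and the part of that in these ratios was not tested.

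**Figure D3:**
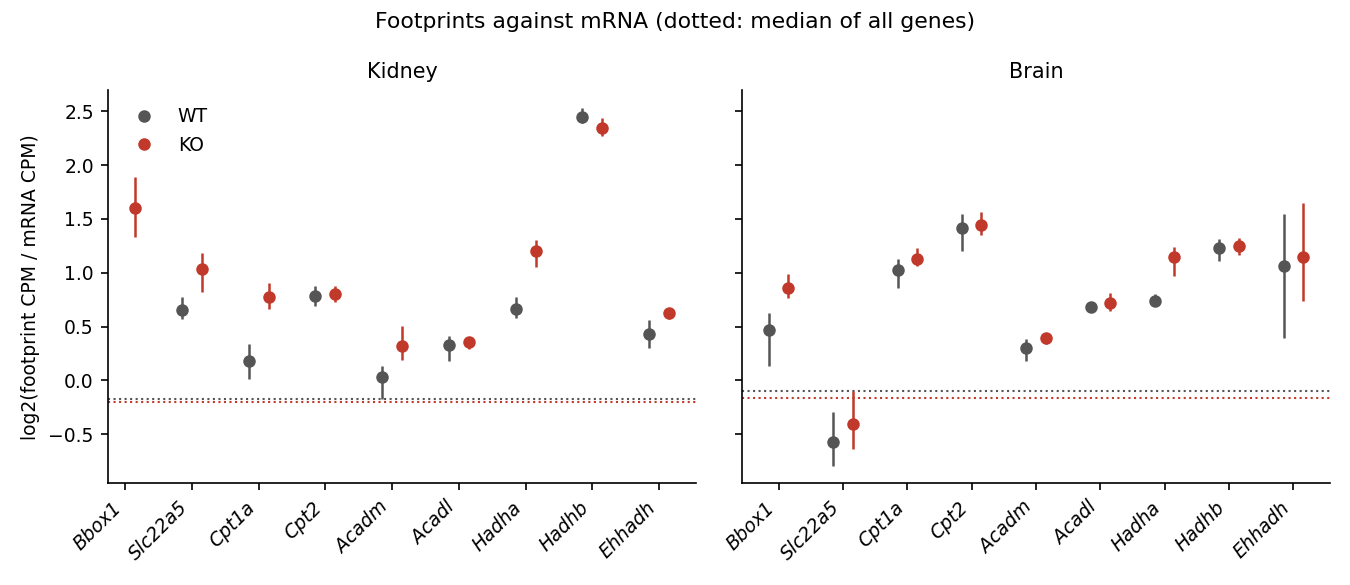
log2 ratio of footprint CPM to mRNA CPM in kidney and brain; points use the mean of the 3 libraries, bars span the footprint libraries over the mean mRNA level, and dotted lines mark the median of all genes. Hadhb is highest in kidney (2.45 in WT) and Slc22a5 is lowest in brain (-0.58 in WT), and both share sequence with other genes. Bbox1 in WT kidney is not drawn because it had under 10 mRNA reads on average.

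Loss of Rpl41 left the mRNA of most members in kidney within the spread of the libraries. None of the 9 was called by the Benjamini-Hochberg adjusted quasi-likelihood test of edgeR, against 0.00719% of the 13909 genes tested, Rpl41 alone (72 genes in DESeq2). DESeq2 called 0 of 8 and gave no adjusted p for Bbox1. An unadjusted p under 0.05 in edgeR was found for 2 of 9 members and for 14.2% of all genes. Kidney mRNA belongs to the choice of the set, and nothing is read from the counts of members. The median log2 fold change of the members was 0.19, beside 0.11 for all genes. With library totals in place of TMM scaling the median of all genes moved to -0.06 and that of the members to 0.02. Cpt1a (-0.02, SE 0.14), Hadha (0.01, SE 0.15), Slc22a5 (0.03, SE 0.14) and Acadm (-0.06, SE 0.18) were close to 0 and their sign changed with the processing. With counts summed over the transcripts of a gene Acadm stood at -0.65. Cpt2 had 46.4, 55.4 and 58.5 CPM in WT and 55.4, 77.0 and 63.4 CPM in KO, a log2 fold change of 0.46 (SE 0.19), and the groups overlapped. Without KO library 1, Cpt2 had a log2 fold change of 0.62 and passed the threshold, the single member to do so under any alternative. That setting left only KO libraries 2 and 3, those with the higher mitochondrial rRNA share, in the KO group. With KO libraries 2 and 3 left out instead, Cpt2 stood at 0.11.

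Bbox1 was the exception in size, though on few reads. It had 3, 5 and 13 mRNA reads in WT kidney and 32, 27 and 20 in KO kidney, or 0.0619 to 0.289 CPM against 0.442 to 0.581 CPM. Every KO library was above every WT library, which held for 8.02% of all genes tested. The log2 fold change was 2.00 (SE 0.66), and between 1.64 and 2.83 under the alternatives that tested it. With both KO kidney mRNA libraries 2 and 3 left out, those with the higher mitochondrial rRNA share, it was 2.02, and the median of the members was 0.08.

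In kidney footprints all 9 members had a log2 fold change above 0, with a median of 0.33, beside -0.02 for all genes. Of these, 3 (Bbox1, Hadha and Cpt1a) passed the threshold in edgeR, against 9.87% of the 13459 genes tested in either direction (802 higher and 526 lower, or 337 higher and 609 lower with library totals). These libraries belong to the choice of the set, and nothing is read from the count. All KO libraries lay above all WT libraries for 5 members, Bbox1, Cpt1a, Cpt2, Hadha and Ehhadh, and for 10.3% of all genes. No sign changed under any alternative, but the calls did. Leaving out WT library 1, the one with pancreatic markers, or WT library 2, KO library 2 or KO library 3 left 0 of 9 called each time, as did a replicate block. Without WT library 1 the log2 fold change was 1.04 for Bbox1, 0.39 for Cpt1a and 0.41 for Hadha.

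**Figure D4:**
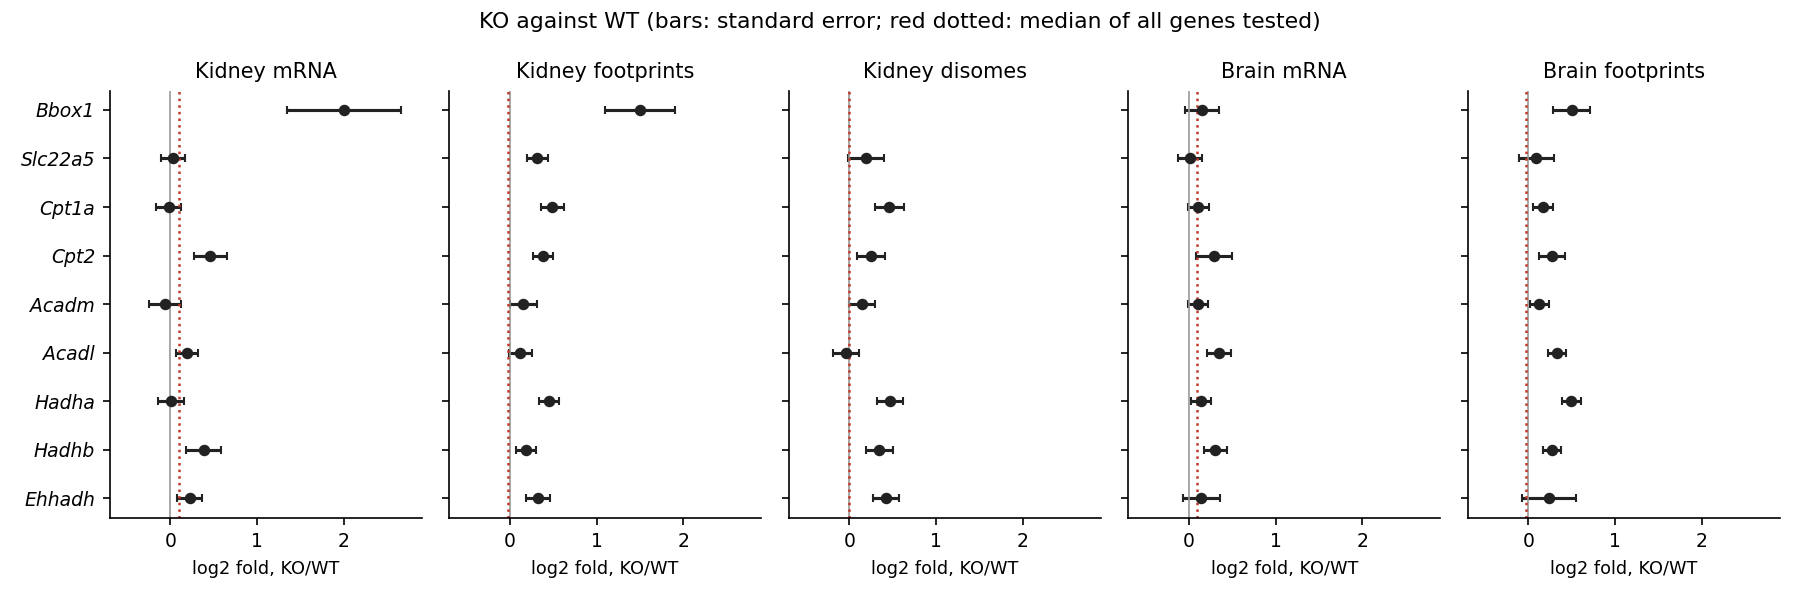
log2 fold change of each member in KO against WT in the 5 sets of libraries; bars are standard errors and the red dotted line is the median of all genes tested. In both sets of footprints the 9 points lie above that median, and Bbox1 has no value in disomes because it was not tested there.

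Cpt1a, which controls entry into the carnitine shuttle, had 135, 148 and 168 footprint CPM in WT kidney and 186, 220 and 198 CPM in KO kidney. The KO libraries were the 3 highest, and the log2 fold change was 0.49 (SE 0.13). Hadha had 96.9, 106 and 92.9 CPM in WT and 116, 138 and 130 CPM in KO, again without overlap, a log2 fold change of 0.45 (SE 0.11). Cpt2 followed with 86.5 to 98.3 CPM in WT and 108 to 120 CPM in KO (0.38, SE 0.11). Ehhadh had 301, 360 and 326 CPM in WT and 402, 376 and 398 CPM in KO (0.33, SE 0.14). Slc22a5 (0.32, SE 0.12), Hadhb (0.19, SE 0.12), Acadm (0.15, SE 0.16) and Acadl (0.12, SE 0.13) had overlapping groups. Bbox1 footprints numbered 9, 5 and 18 in WT and 17, 84 and 53 in KO. As CPM these were 0.348, 0.336 and 1.33 against 1.54, 1.98 and 1.35, so WT library 3 nearly touched the KO range, and the log2 fold change was 1.50 (SE 0.41).

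**Figure D5:**
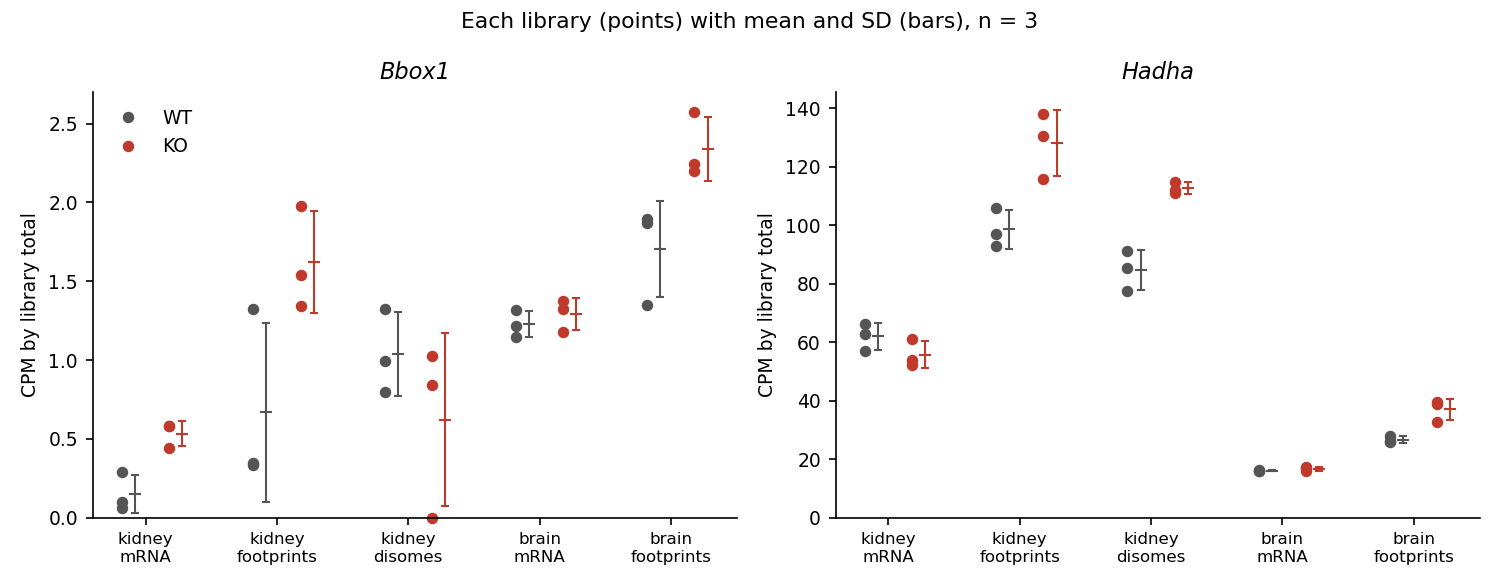
CPM of Bbox1 (left) and Hadha (right) in every library by organ and assay, with the mean and SD of 3 libraries beside the points. Hadha is higher in every KO than in every WT library in footprints of both organs and in disomes, and not in mRNA; Bbox1 never exceeds 2.57 CPM.

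Together the 9 members took 1220 to 1406 CPM of kidney footprints in WT and 1538 to 1549 CPM in KO. In kidney mRNA they took 900.5 to 1055 CPM in WT and 869 to 988 CPM in KO. The proximal tubule, where these enzymes are abundant, also moved: its 10 markers summed to 5486 to 6220 CPM of footprints in WT and 6548 to 7693 CPM in KO, with 6 of 10 higher in every KO library and 0 lower, and none of the 10 was at or under 3 reads. In mRNA the sum was 13106 to 16365 CPM in WT and 16817 to 18933 CPM in KO, with 2 of 10 higher in every KO library and 3 lower. Markers of the thick ascending limb and distal tubule summed to 1234 to 1486 CPM of footprints in WT and 1683 to 1797 CPM in KO, with 2 of 4 higher in every KO library and 1 lower. In mRNA that sum was lower in KO, at 1613 to 1900 CPM in WT and 1214 to 1485 CPM in KO, with 2 of 4 lower in every KO library. Leukocyte markers summed to 76.2 to 117 CPM of footprints in WT and 132 to 142 CPM in KO, with 2 of 4 higher, and pancreatic acinar markers to 11.2 to 122 CPM in WT and 3.53 to 7.70 CPM in KO, with 4 of 5 lower. In mRNA, podocyte markers were lower in KO (123 to 150 CPM in WT, 73.8 to 92.7 CPM in KO, 4 of 4 lower in every KO library), as were endothelial markers (58.0 to 73.8 CPM in WT, 40.3 to 52.9 CPM in KO, 3 of 4 lower). Adipocyte markers had 4 of 5 lower in mRNA while their sums overlapped. The part of these cell types in the mRNA and footprint values was not tested.

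Disomes, which mark ribosomes queued behind one another, offered values that the choice of the set had not used. They came from the same organ and genotypes as the kidney footprints that chose the set, so they are not an independent check of it. Of the 8 members tested, 7 had a log2 fold change above 0 in KO kidney, with a median of 0.29 beside 0.00 for the 7777 genes tested. edgeR called 0 of 8, against 0.154% of all genes, and DESeq2 called 0 of the 6 for which it gave an adjusted p. An unadjusted p under 0.05 in edgeR was found for 4 of 8 members and for 11.2% of all genes. Hadha had 91.2, 85.5 and 77.6 disome CPM in WT and 115, 111 and 112 CPM in KO, with no overlap. Its log2 fold change was 0.47 (SE 0.15, adjusted p = 0.22 in the Benjamini-Hochberg adjusted quasi-likelihood test of edgeR), with adjusted p between 0.11 and 0.50 under the alternatives. Cpt1a had 106, 110 and 147 CPM in WT and 157, 158 and 162 CPM in KO (0.46, SE 0.17, adjusted p = 0.30 in edgeR, 0.055 to 0.70 under the alternatives). Ehhadh stood at 0.42 (SE 0.15, adjusted p = 0.28 in edgeR, 0.089 to 0.63) and Hadhb at 0.34 (SE 0.15, adjusted p = 0.42 in edgeR, 0.23 to 0.71), and in both every KO library was above every WT library. That held for 4 of 8 members and for 6.29% of all genes. Acadl was the one member below 0, at -0.04 (SE 0.15), and Bbox1 had only 0 to 4 disome reads in any library and was not tested. Cell type markers moved in these libraries too. Those of the thick ascending limb and distal tubule summed to 1040 to 1393 disome CPM in WT and 1485 to 1693 CPM in KO (2 of 4 higher in every KO library), and leukocyte markers to 41.6 to 64.3 CPM in WT and 65.2 to 97.2 CPM in KO (2 of 4 higher). Blood markers were lower in KO (269 to 308 CPM in WT, 144 to 200 CPM in KO, 4 of 4), as were podocyte markers (34.4 to 41.8 CPM in WT, 12.6 to 26.7 CPM in KO, 3 of 4). Proximal tubule sums overlapped, at 4629 to 6467 CPM in WT and 5611 to 6844 CPM in KO, with 1 of 10 higher in every KO library. The part of these cell types in the disome values was not tested.

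Relative to footprints, disomes on the members did not stand out between genotypes. The change in disomes less the change in footprints had its largest size in Hadhb, 0.18 (SE 0.19), with 0 of 8 members called by edgeR or DESeq2 and 0 at an unadjusted p under 0.05 in edgeR, beside 5.9% of all genes. Within WT kidney, the log2 ratio of disome to footprint CPM lay between -0.45 and 0.01 for 7 members, beside a median of -0.13 over 8229 genes. Slc22a5 was the exception at -1.60 in WT and -1.68 in KO, in the 4.24th and 3.78th percentile, on 33 to 101 disome reads a library. It shares 41.2% of its 28-base stretches with other genes, and the part of that in this ratio was not tested.

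In brain, mRNA of all 9 members had a log2 fold change above 0 in KO, from 0.01 to 0.35, but Slc22a5 fell below 0 with library totals (-0.07) and 5 members did so with counts summed per gene, and 68.9% of all genes were also above 0. The median was 0.15 beside 0.10 for all genes. Neither edgeR nor DESeq2 called any of the 9, and 0.00635% of the 15736 genes tested were called in edgeR. An unadjusted p under 0.05 in edgeR was found for 1 of 9 members and for 4.99% of all genes. Brain mRNA belongs to the choice of the set, and nothing is read from the counts of members. Acadl, at 9.42 to 10.9 CPM in WT and 12.3 to 12.8 CPM in KO (0.35, SE 0.14), and Hadhb, at 17.9 to 21.0 CPM in WT and 22.1 to 23.3 CPM in KO (0.30, SE 0.14), had KO libraries all above WT libraries, 2 of 9 beside 8.22% of all genes.

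Brain footprints again had all 9 members above 0 in KO, with a median of 0.27 beside -0.03 for all genes, of which 45.5% were above 0. Slc22a5 and Ehhadh fell below 0 when single libraries were left out. edgeR called 0 of 9, against 0.0346% of the 14470 genes tested, and DESeq2 called 1 (Hadha) of the 5 for which it gave an adjusted p. An unadjusted p under 0.05 in edgeR was found for 4 of 9 members and for 14.5% of all genes. KO libraries were all above WT libraries for 5 members, Bbox1, Cpt2, Acadl, Hadha and Hadhb, and for 8.29% of all genes. Brain footprints also belong to the choice of the set, and nothing is read from these counts. Hadha had 28.0, 26.0 and 26.2 CPM in WT brain and 32.8, 39.5 and 38.8 CPM in KO brain, a log2 fold change of 0.49 (SE 0.11). It was the largest difference among the well-covered members and close in size to those in kidney footprints and disomes. Hadha mRNA in brain was 15.9 to 16.3 CPM in WT and 16.1 to 17.4 CPM in KO (0.14, SE 0.11). Acadl footprints were 16.2 to 17.0 CPM in WT and 19.6 to 22.0 CPM in KO (0.33, SE 0.11). Bbox1 had 28, 18 and 41 footprints in WT and 40, 79 and 56 in KO, or 1.35 to 1.90 against 2.20 to 2.57 CPM (0.50, SE 0.21).

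Together the members took 125 to 132 CPM of brain footprints in WT and 151 to 158 CPM in KO, and 70.9 to 74.2 CPM of brain mRNA in WT and 78.4 to 79.7 CPM in KO. Astrocyte markers summed to 782 to 854 CPM of footprints in WT and 759 to 847 CPM in KO, and oligodendrocyte markers to 725 to 875 and 709 to 834 CPM, so these sums overlapped, as did those of neurons, at 813 to 1004 and 786 to 884 CPM. In brain mRNA, where the members' sum was also higher in KO, neuron markers summed to 1315 to 1507 CPM in WT and 1524 to 1573 CPM in KO (2 of 4 higher in every KO library) and choroid plexus markers to 320 to 346 CPM in WT and 376 to 397 CPM in KO (1 of 4 higher). Astrocyte and oligodendrocyte sums overlapped in mRNA. Blood markers were lower in KO footprints, at 644 to 1787 CPM in WT and 338 to 438 CPM in KO, with 4 of 4 lower in every KO library, and in KO mRNA, at 768 to 2382 CPM in WT and 403 to 732 CPM in KO, with 2 of 4 lower. The part of these cell types in the members' values was not tested.

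The change in footprints less the change in mRNA, the translation efficiency term of a joint model, was called for 0 of 9 members in either organ by edgeR or DESeq2, with 2 in kidney and 1 in brain at an unadjusted p under 0.05 in edgeR, beside 17.7% and 5.28% of all genes. Over all genes edgeR called 0% in either organ, and DESeq2 called 698 in kidney and 2 in brain. This term too was built from values that chose the set, and nothing is read from the counts of members. The highest values in kidney were those of Cpt1a at 0.50 (SE 0.18) and Hadha at 0.44 (SE 0.18), beside a median of -0.13 for all genes. In brain Hadha was highest at 0.39 (SE 0.17), beside a median of -0.09. Bbox1 had the widest error, at -0.61 (SE 0.79) in kidney and 0.38 (SE 0.28) in brain.

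A tissue by genotype term described the difference between the organs in their response. It was built from the values that chose the set, so nothing is read from the counts of members. No member was called in mRNA or footprints by edgeR, beside 0% and 0.141% of all genes, or by DESeq2, which gave no adjusted p for Bbox1 in footprints. An unadjusted p under 0.05 in edgeR was found for 1 member in mRNA and 0 in footprints, beside 7.88% and 9.44% of all genes. Bbox1 had the largest term, 1.82 (SE 0.60) in mRNA and 0.99 (SE 0.49) in footprints, kidney above brain. The term for Hadha was -0.18 (SE 0.20) in mRNA and -0.05 (SE 0.16) in footprints, and that for Cpt1a was -0.17 (SE 0.20) and 0.32 (SE 0.18).

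The wider pathway was followed through 62 further genes in 8 lists, of which 61 had a row. The lists were chosen with earlier results of these data known, so nothing is read from their counts. In WT mRNA, 50 of 61 were called higher in kidney and 5 lower, and in footprints 52 of 60 higher and 8 lower, beside 38.3% and 37.5% of all genes called higher. The largest kidney excess in footprints was that of Cyp4a10, a fatty acid hydroxylase and PPAR alpha target (7.93, SE 0.31), and then of Vnn1 (7.87, SE 0.21) and Slc27a2, a fatty acid transporter and acyl-CoA synthetase (7.12, SE 0.20). The genes lowest in kidney in footprints were Acsl6, an acyl-CoA synthetase of neurons (-9.58, SE 0.27), Cpt1c, the brain form of Cpt1 (-6.05, SE 0.23), and Fabp1 (-3.63, SE 0.41). In mRNA they were Acsl6 (-9.89, SE 0.27), Abcd2 (-4.69, SE 0.22) and Cpt1c (-4.24, SE 0.28). All 7 later enzymes of mitochondrial beta-oxidation and all 11 other PPAR alpha targets and ketone body enzymes were called higher in kidney in both assays. The 11 genes of fatty acid uptake and activation were divided, with 5 called higher and 3 lower in mRNA (median 0.03) and 5 higher and 6 lower in footprints (median -0.57).

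In KO kidney footprints, 5 of 58 pathway genes tested were called higher and 1 lower, close to the 9.87% of all genes. Acox3, a peroxisomal acyl-CoA oxidase, rose by 0.65 (SE 0.15, adjusted p = 0.021 in the Benjamini-Hochberg adjusted quasi-likelihood test of edgeR). Cpt1b, the muscle form of Cpt1, rose by 0.63 (SE 0.12, adjusted p = 0.013 in edgeR) and Ppara, the receptor that drives many of these genes, by 0.45 (SE 0.13, adjusted p = 0.048 in edgeR). The KO and WT libraries of Ppara overlapped. Ppargc1a, a coactivator of that receptor, rose by 0.44 (SE 0.11, adjusted p = 0.030 in edgeR) and Vnn1 by 0.42 (SE 0.11, adjusted p = 0.037 in edgeR), both named after their values were seen. Ppard, a related receptor, fell by 1.70 on the log2 scale (SE 0.41, adjusted p = 0.026 in edgeR), and its groups overlapped. It had 26 to 311 reads in the WT libraries and 25 to 88 in the KO libraries, and stood at -0.99 without WT library 1. The median of the 58 was 0.11. None of these 6 calls held in every alternative, and edgeR called 0 pathway genes without KO library 2, 1 without KO library 3, 1 without WT library 1 and 3 without WT library 2.

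In KO kidney mRNA none of the 60 pathway genes tested was called by edgeR, 10 had an unadjusted p under 0.05 (14.2% of all genes did) and DESeq2 called 1 of 57. Without KO library 1, edgeR called 11. The smallest p values were those of Acsl3 (-0.79, SE 0.18) and Ppara (1.40, SE 0.43), both with adjusted p = 0.29 in edgeR. In brain edgeR and DESeq2 called none in mRNA (5 of 57 at an unadjusted p under 0.05 in edgeR, beside 4.99% of all genes) or in footprints (8 of 60, beside 14.5%), where DESeq2 gave an adjusted p for 43. Acox3, which rose in kidney footprints, stood at 0.46 (SE 0.14, adjusted p = 0.25 in edgeR) in brain footprints and at 0.53 (SE 0.17, adjusted p = 0.22 in edgeR) in kidney disomes. The other pathway genes with the smallest p were Acad11 in brain footprints (0.39, SE 0.12), Acsl5 (0.35, SE 0.11) and Slc27a2 (0.47, SE 0.17) in brain mRNA, and Hsd17b10 in disomes (-0.83, SE 0.23). For disomes edgeR called 0 of 54 and DESeq2 0 of the 18 for which it gave an adjusted p, and 8 had an unadjusted p under 0.05 in edgeR, beside 11.2% of all genes.

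The genes whose level followed Bbox1 most closely over the 18 kidney libraries, each centred on the mean of its assay, were Topors (Pearson's r = 0.789), Rb1 (0.748), Sfxn5 (0.736), Cog4 (0.722) and Ercc4 (0.709), the highest of 7531 genes compared. None of them belongs to the pathway. These values are descriptions over libraries that share genotype, depth and organ, and Bbox1 itself had few reads in each.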

How the data were processed

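The deposited table holds raw read counts per transcript, in 30 mouse columns and 142604 rows. The authors trimmed adaptors with cutadapt, removed low-quality and rRNA reads, aligned the rest with STAR to GRCm38 with multimapping reads allowed and counted with featureCounts, whose versions are not given in the sources used here. The 28 columns of a second, human table were not used, because their names are titles of mouse samples. Transcripts were matched to GENCODE M21 (141374 rows) and 1 coding transcript per gene, that of the longest protein, was kept for printing. The members and lists were chosen with earlier results of these data known.

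Models were fitted on the whole table with edgeR 4.0.16 in R 4.3.3 (filterByExpr, TMM scaling, quasi-likelihood F test), with p-values adjusted by Benjamini and Hochberg's method across the table and called under 0.05. Fold changes are given as log2 values, and their SE is the fold change divided by the square root of F. CPM in the text is by library total. Alternatives were DESeq2 1.42.0, library totals, no filter, counts summed per gene, a replicate block and leaving out each library in turn. Leaving out both KO kidney mRNA libraries 2 and 3 was chosen after seeing the data. The scripts were tested on simulated data. The study gives 3 male mice of each genotype and calls the footprint libraries biological replicates, while the labels tie no library to an animal, and p-values measure the spread between libraries. Genes named beyond the members followed a rule of largest called changes, or of the 2 smallest p values where none was called, and the 5 genes most like Bbox1.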

Additional observations from a re-analysis of the deposited data

How the results depend on the processing

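Kidney footprints gave 3 members called in edgeR (Bbox1, Cpt1a and Hadha) and 3 in DESeq2 (Cpt1a, Cpt2 and Hadha). Library totals called 1 member, no filter 6 and a replicate block 0. When single libraries were left out, 0 to 3 were called. DESeq2 gave no adjusted p for Bbox1 in kidney mRNA or footprints, for 4 members in brain footprints and for 2 of the 8 tested in disomes. Called pathway genes numbered 6, but 3 with library totals, 21 with no filter and 0 to 9 when libraries were left out. All member values in kidney footprints, disomes and kidney against brain kept their direction under the alternatives run. In kidney mRNA the count of members called was 0 to 1 and that of pathway genes 0 to 11 when libraries were left out, and DESeq2 called 1 pathway gene. The median of the members there was 0.025 with library totals, -0.019 with counts summed per gene and 0.077 without both KO libraries 2 and 3. Member values near 0 in kidney mRNA changed sign. Slc22a5 was -0.13 with library totals, -0.22 with counts summed per gene and -0.048 to 0.11 when libraries were left out. Hadha was -0.16, -0.23 and -0.086 to 0.088 in the same order, -0.0015 with no filter and -0.15 without both KO libraries. With counts summed per gene Acadm was -0.65 and Cpt1a -0.22. Cpt1a was 0.032 and Acadm 0.20 without both KO libraries, and they ranged from -0.089 to 0.097 and from -0.21 to 0.061 when single libraries were left out. Acadl was -0.019 with counts summed per gene.

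In brain mRNA the median was 0.073 with library totals, -0.0072 with counts summed per gene and 0.094 to 0.24 when libraries were left out. Counts summed per gene gave -0.057 for Bbox1, -0.089 for Slc22a5, -0.024 for Cpt1a, -0.15 for Acadm and -0.0072 for Hadha, and library totals gave -0.066 for Slc22a5, which ranged from -0.079 to 0.074 when libraries were left out. In brain footprints DESeq2 and no filter each called 1 member, Hadha. The median was 0.21 to 0.34, Slc22a5 -0.072 to 0.28 and Ehhadh -0.051 to 0.49 when libraries were left out. For disomes the median was 0.22 with library totals, and pathway calls were 2 with no filter and 0 to 1 when libraries were left out. For translation efficiency in kidney DESeq2 called 1 pathway gene and leaving out libraries gave 0 to 8, a member median of 0.020 to 0.27 and -1.38 to 0.30 for Bbox1. In brain the member median was 0.17 with counts summed per gene. The tissue by genotype term gave 1 pathway gene in mRNA by DESeq2 and 0 to 5 when libraries were left out, and 1 in footprints with no filter and 0 to 1 when libraries were left out. WT kidney against brain in mRNA had a member median of 3.61 with library totals and 3.86 with TMM. The cause of these changes was not tested.

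Deviations of same-numbered WT and KO libraries correlated between -0.41 and 0.44. With so few libraries in a group, these values cannot decide whether same-numbered libraries shared a batch or litter. With the replicate block the calls of Bbox1, Cpt1a and Hadha in kidney footprints were lost (0 members called), 5 pathway genes were called there, and no other count of members or pathway genes called moved by over 1.5 times. Depth limits Bbox1 most, with 3 to 84 reads in kidney and 0 to 4 in disomes, so that its differences there rest on few reads.

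With 1 transcript per gene, genes called in kidney footprints numbered 1328 (802 higher and 526 lower in KO), but 946 with library totals (337 higher and 609 lower), 854 with DESeq2, 2210 with no filter and 878 with the replicate block. Called genes in kidney mRNA rose from 1 to 72 with DESeq2, those in brain mRNA from 1 to 6 with DESeq2, and those in brain footprints from 5 to 109 with DESeq2, 377 with no filter and 18 with the block. For disomes they went from 12 to 63 with no filter and 49 with the block, and for translation efficiency from 0 to 698 in kidney and 2 in brain with DESeq2, with 1 in kidney with no filter. The tissue by genotype term went from 0 to 31 in mRNA with DESeq2, and from 22 to 68 with DESeq2, 130 with no filter and 13 with the block in footprints. Library totals moved the median of all genes in kidney mRNA from 0.11 to -0.058, and in WT kidney against brain mRNA from 0.10 to -0.15.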
